A study of Mus musculus with 2 samples.

Results

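Endothelial genes of the mouse ureter were described through 10 genes that are typical of blood vessel lining cells: Kdr, Flt1, Tek, Tie1, Pecam1, Esam, Emcn, Plvap, Egfl7 and Sox18. The genes were chosen by name, and every array probe carrying one of these names was taken. This gave 14 of the 39429 probes on the array, and all 10 genes entered the test among 20104 genes. RNA came from ureters dissected at E14.5 from NMRI embryos. The knockout was labelled Pax-cre/+;Smad4(fl/fl), written with Pax2-cre in the series title, and carries a conditional Smad4 allele on both chromosomes together with a Cre transgene. The control was labelled Smad4(fl/?), so it holds at least 1 floxed allele, its second allele is not stated, and no Cre is named. Each of 2 arrays set 1 knockout sample against 1 control sample. On replicate 1, labelled female, Cy3 marked the knockout RNA, and on replicate 2, labelled male, Cy5 marked it. An effect of sex and an effect of dye thus cannot be told apart. The sources used here do not give the number of embryos behind an RNA sample or say that samples came from separate litters. The p-values rest on the spread between these samples, pooled mainly over all genes, and that spread may be technical.

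Endothelial cells line all blood vessels and are specified by a small set of receptors and transcription factors. Vascular endothelial growth factor (VEGF) binds the receptor kinases encoded by Kdr and Flt1, and angiopoietins bind the receptor kinase encoded by Tek, whose partner is encoded by Tie1. In the ureter the vessels run through the mesenchymal wall around the epithelial tube. Pax2-driven Cre is known for its activity in the nephric duct lineage, which forms the epithelium and not the vessels, so the endothelium is not the tissue in which the floxed allele is expected to be recombined. SMAD4 is the common partner of the SMAD proteins activated by BMP and TGF-beta receptors.

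Of the 10 genes, 3 were read by more than 1 probe, and the first 30 of the 60 bases of these probes are shown because the probes of a gene did not all give the same value. Each line reads 5′ to 3′ on the gene's strand. Positions are on mm9, as the scanner files list them, and all 7 probes lie on the minus strand. Whether a probe lies in a coding exon or an untranslated region was not determined here.
Kdr, brighter probe, chr5:76329309-76329368: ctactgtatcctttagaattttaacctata
Kdr, second probe, chr5:76330395-76330454: tgtttaaatggaagtggtcctgtcccggct
Flt1, brightest probe, chr5:148373791-148373850: aagtaaagaaaagctatcgggattctctgg
Flt1, second probe, chr5:148446872-148446931: ggagggtactgccgttcctgtgtggtattt
Flt1, dim probe, chr5:148465976-148466035: tccctatcccaactacacattcaatcttct
Plvap, brighter probe, chr8:74021877-74021936: tttccagcctccctcttaaaggccactagg
Plvap, second probe, chr8:74030739-74030798: attcaagaaaaggatcctggagtctcagcg

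On both arrays, all 10 genes were well above background in both channels, so endothelial RNA was detected in every sample. The 11 genes fixed as a check for ureter tissue (urothelial, smooth muscle and mesenchymal markers) were also well above background in all 4 channels. Between 66.5% and 69.1% of all probes were well above background in each channel. Values are log2 ratios of labelled knockout over labelled control, so a negative value means more signal in the channel labelled control. Directions follow the dyes given in the labels. The authors' deposited table, read in the order of its titles, runs the other way on both arrays, and turning every sign would exchange higher and lower throughout. Among the ureter check genes, mean log2 ratios ran from -0.48 to 1.55. The urothelial plaque genes Upk3a and Upk1b rose in labelled knockout, 2.94-fold and 2.47-fold (limma adjusted p = 0.000882 and 0.00139). The epithelial keratin gene Krt19 read 0.53 ± 0.05 (SD, n = 2, adjusted p = 0.194) and the mesenchymal collagen gene Col1a1 -0.48 ± 0.19 (adjusted p = 0.326), each with 1 sign on both arrays. The remaining epithelial and mesenchymal genes of this check lay near 0. Means were 0.06 for Krt18 and 0.005 for Trp63 (epithelial), and -0.02 for Pdgfra and -0.07 for Tbx18 (mesenchymal). Trp63 and Tbx18 had opposite signs on the arrays. Smooth muscle genes Acta2, Tagln and Myh11 lay between 0.12 and 0.24 and did not pass. The part of these other cell types in the endothelial values was not tested. Because whole tissue was measured, a difference in the number of endothelial cells and a difference in RNA per cell could not be told apart.

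As a set, the 10 genes showed no called difference. None passed an adjusted p of 0.05 in limma, where 0.328% of all 20104 genes did, and the range of mean log2 ratios was -0.37 for Flt1 to 0.12 for Emcn. At an unadjusted p under 0.05 there were 2 of 10, Flt1 and Plvap, both with more signal in labelled control, against 4.55% of all genes. None of the 10 was at least 1.5-fold apart in 1 direction on each array, against 0.368% of all genes. The median of the 10 mean log2 ratios was -0.10, and that of all genes tested was -0.00438. More signal in labelled control on both arrays was seen for 5 of 10 (Kdr, Tie1, Flt1, Plvap and Sox18), against 24.6% of all genes. None of the 10 had more signal in labelled knockout on both arrays, which 21.7% of all genes had.

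**Figure D1:**
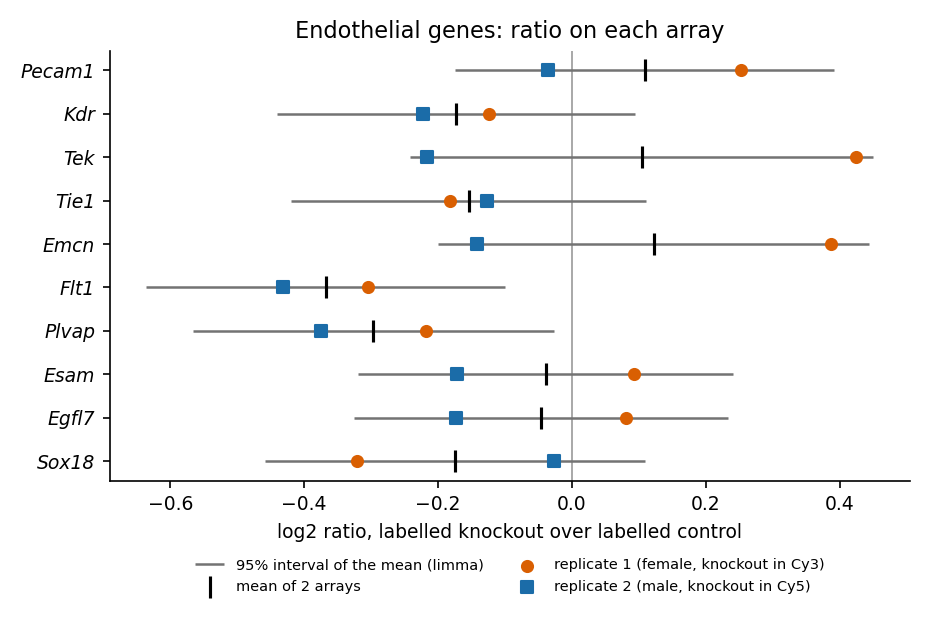
Log2 ratio of labelled knockout over labelled control (x axis) for each of the 10 endothelial genes (y axis), with replicate 1 as circles, replicate 2 as squares, the mean of the 2 arrays as a tick and limma's 95% interval as a line. All 10 squares lie below 0, the circles lie on both sides, and only the intervals of Flt1 and Plvap do not reach 0.

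The signs on each array were as follows. On replicate 2 all 10 genes were below 0, where 51.1% of all genes were, with a median of -0.17 over the 10. On replicate 1 the count was 5 of 10, against 51.7% of all genes, with a median of -0.0211. The ratios of Pecam1, Tek, Emcn, Esam and Egfl7 had opposite signs on the arrays. The summed intensity of the 10 genes was 92339 in labelled knockout and 92085 in labelled control on replicate 1. It was 79266 and 91056 on replicate 2, and Egfl7 supplied most of each sum. Intensities were normalised within each array and not scaled between arrays. Across the arrays, the knockout and control intensities overlapped for all 10 genes, and they did not overlap for 20.5% of all genes tested.

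**Figure D2:**
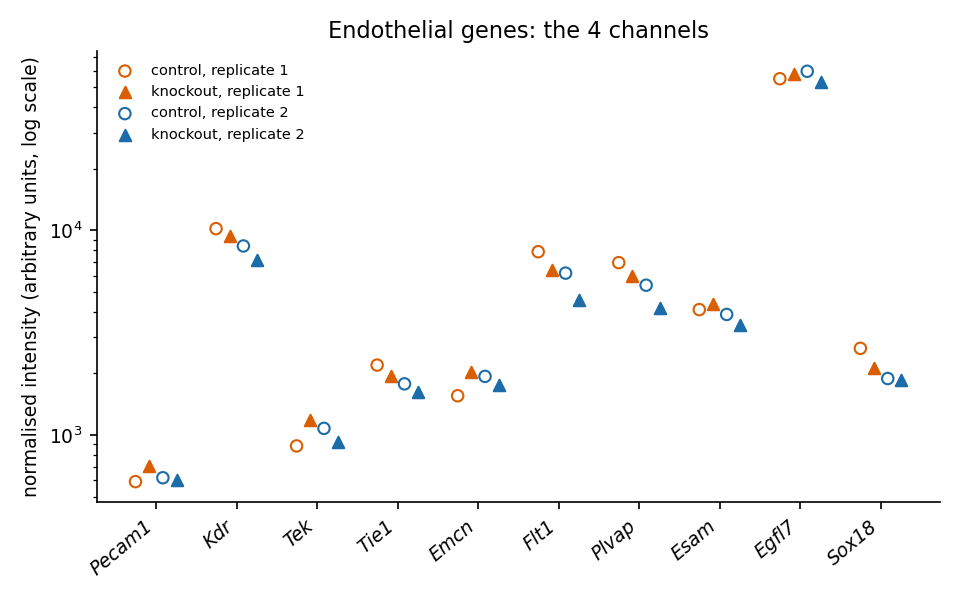
Normalised intensity (y axis, arbitrary units, log scale) of each endothelial gene in the 4 channels, with control as open circles and knockout as triangles, replicate 1 in orange and replicate 2 in blue. For Kdr, Tie1, Flt1, Plvap and Sox18 the triangle lies below the circle of its own array on both arrays. Heights of different genes come from different probes and are not comparable.

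Among the VEGF receptors, Flt1 had the lowest ratio of the 10 genes. Flt1 encodes a receptor that binds VEGF tightly and limits how much of it reaches KDR. Its brightest probe had a normalised intensity of 6367 in labelled knockout and 7863 in labelled control on replicate 1, and of 4582 and 6179 on replicate 2. The control channel was brighter on each array. The log2 ratio was -0.30 on the first array and -0.43 on the second, the mean being -0.37 ± 0.09 (SD, n = 2 arrays) or 1.29-fold. The 95% interval was -0.64 to -0.10, with an unadjusted p of 0.0120 and an adjusted p of 0.667 in limma.

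The other Flt1 probes gave a less uniform picture. The second probe, 73081 bases upstream of the first in the direction of transcription, is assigned to the transcript ENSMUST00000110529. It read -0.44 on the first array and -0.13 on the second, the mean being -0.28 ± 0.22 (SD, n = 2). Both values lie on the same side as the brightest probe, with the larger size on the other array. The dim probe, 92185 bases upstream and assigned to the cDNA AK005502, was not well above background in any spot of any channel and did not enter the test. Which Flt1 transcripts each probe can detect was not determined here.

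Kdr encodes the main signalling receptor for VEGF in endothelial cells. Its brighter probe read 9360 in labelled knockout and 10195 in labelled control on replicate 1, and 7185 and 8388 on replicate 2. The log2 ratio was -0.12 on replicate 1 and -0.22 on replicate 2, a mean of -0.17 ± 0.07 (SD, n = 2) with a 95% interval of -0.44 to 0.09 (limma adjusted p = 1.00). The knockout channel was thus the dimmer on both arrays for this probe, but the interval spans 0. The second Kdr probe, 1086 bases upstream, read -0.14 on replicate 1 and 0.11 on replicate 2, a mean of -0.01 ± 0.18. On replicate 2 the probes of this gene disagreed in sign. They also differed in base composition, with 35.0% G and C in the brighter probe and 55.0% in the second, whose part in the disagreement was not tested.

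The angiopoietin receptor genes did not run together. Tek encodes TIE2, the receptor for angiopoietins, which steadies vessels by recruiting mural cells. Its probe (chr4:94540624-94540683, plus strand) read 1186 in labelled knockout and 883 in labelled control on replicate 1, and 926 and 1076 on replicate 2. The ratio of 0.43 on replicate 1 was the highest single value of the 10 genes, while replicate 2 gave -0.22. The mean was 0.10 ± 0.45 (SD, n = 2), with an interval of -0.24 to 0.45, and the spread between the arrays was larger than the mean. Tie1 encodes the partner receptor of TIE2. Its probe (chr4:118144132-118144191, minus strand) read 1935 in labelled knockout and 2195 in labelled control on replicate 1, and 1627 and 1777 on replicate 2. The ratios of -0.18 and -0.13 lay close together, with a mean of -0.15 ± 0.04 and an interval of -0.42 to 0.11. Both genes had an adjusted p of 1.00 in limma.

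Plvap encodes the protein that forms the diaphragms of fenestrae and caveolae in permeable capillaries. The brighter of its probes read 5976 in labelled knockout and 6954 in labelled control on replicate 1, and 4160 and 5393 on replicate 2. The knockout channel was dimmer on each array. The log2 ratio was -0.22 on replicate 1 and -0.37 on replicate 2, a mean of -0.30 ± 0.11 (SD, n = 2) or 1.23-fold. Its interval was -0.57 to -0.03 (unadjusted p = 0.0345, adjusted p = 1.00 in limma). The second probe, 8862 bases upstream, read -0.30 on replicate 1 and -0.14 on replicate 2, a mean of -0.22 ± 0.11. The probes of Plvap therefore had the same sign on both arrays, as the pair of detected Flt1 probes did.

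Pecam1, Esam and Emcn encode surface proteins of endothelial cells, the first a homophilic adhesion molecule at cell contacts (CD31), Esam a junctional adhesion molecule and Emcn a sialomucin of veins and capillaries. The Pecam1 probe (chr11:106540864-106540923, minus strand) read 704 in labelled knockout and 591 in labelled control on replicate 1, and 602 and 618 on replicate 2. Its ratios were 0.25 and -0.04, a mean of 0.11 ± 0.20 (SD, n = 2). The Emcn probe (chr3:137086389-137086448, plus strand) read 2031 in labelled knockout and 1554 in labelled control on replicate 1, and 1752 and 1933 on replicate 2. Each of these genes was thus brighter in the knockout channel on the female array and dimmer on the male array. That is the Cy3 channel brighter on each array. The ratios of Emcn were 0.39 and -0.14, a mean of 0.12 ± 0.37. The Esam probe (chr9:37345795-37345854, plus strand) followed the same order, with 4370 in labelled knockout and 4098 in labelled control on replicate 1, and 3446 and 3881 on replicate 2. Its ratios of 0.09 and -0.17 gave a mean of -0.04 ± 0.19. None of the 3 passed (limma adjusted p = 1.00 for each), and their intervals ran from -0.17 to 0.39 for Pecam1, -0.20 to 0.44 for Emcn and -0.32 to 0.24 for Esam.

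Egfl7 encodes a secreted protein that endothelial cells deposit around themselves and that guides vessel tube formation. Its probe (chr2:26448142-26448201, plus strand) read 58289 in labelled knockout and 55101 in labelled control on replicate 1, and 53132 and 59925 on replicate 2. No spot was saturated on either array. The ratios of 0.08 and -0.17 gave a mean of -0.05 ± 0.18 (SD, n = 2) and an interval of -0.33 to 0.23. The sign of this mean turned with median centring in place of loess, where it read 0.0187. Sox18 encodes a transcription factor of the SoxF group that acts in early vessel and lymphatic development. Its probe (chr2:181404789-181404848, minus strand) read 2121 in labelled knockout and 2650 in labelled control on replicate 1, and 1852 and 1887 on replicate 2. The ratios of -0.32 and -0.03 gave a mean of -0.17 ± 0.21, with an interval of -0.46 to 0.11. Most of that mean came from replicate 1. Both genes had an adjusted p of 1.00 in limma.

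In the order of their mean log2 ratios, the 10 genes ran from Flt1 and Plvap through Sox18, Kdr, Tie1, Egfl7 and Esam to Tek, Pecam1 and Emcn. The interval of each gene in this order overlapped that of its neighbours, so the order itself was not resolved by 2 arrays. The SD between arrays had a median of 0.18 over the 10 genes and of 0.12 over all genes tested.

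A list of 38 other endothelial genes, fixed with earlier results of these data known, gave the same count of called genes. Of its 37 members tested none passed in limma, and 6 had an unadjusted p under 0.05, 5 with more signal in labelled control and 1 in labelled knockout, against 4.55% of all genes in either direction. The median of the list was -0.13, with -0.11 for the first array by itself and -0.14 for the second. On both arrays 21 of the 37 had more signal in labelled control and 5 more in labelled knockout, and 11 had opposite signs. These shares stand beside 24.6% and 21.7% over all genes, as given above.

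The 5 members with the largest mean sizes lay on the control side, the next, Gpihbp1, being of nearly the same size on the other. Cdh5, which encodes VE-cadherin, read -0.54 on replicate 1 and -0.19 on replicate 2, a mean of -0.36 ± 0.25 (SD, n = 2, limma adjusted p = 0.863). Nos3, the endothelial nitric oxide synthase, had a mean of -0.32 ± 0.17 and She, an adaptor protein gene, -0.32 ± 0.22. Tspan18, a tetraspanin gene, had a mean of -0.31 ± 0.14, which shrank to -0.13 with the mean over its probes. Ptprb encodes VE-PTP, a phosphatase that acts on TIE2 and VE-cadherin, and read -0.32 and -0.29, a mean of -0.31 ± 0.03. With the mean over probes, Ptprb read -0.24 and Nos3 -0.26. These 5 genes were below 0 on each array, though none passed. Gpihbp1, which encodes a capillary lipase anchor and was named after its value was seen, was the gene with an unadjusted p under 0.05 in the other direction (mean 0.30 ± 0.28). Arhgef15, likewise chosen after its values were seen, read -0.72 on replicate 1 and 0.51 on replicate 2, which is the Cy5 channel brighter on each array.

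**Figure D3:**
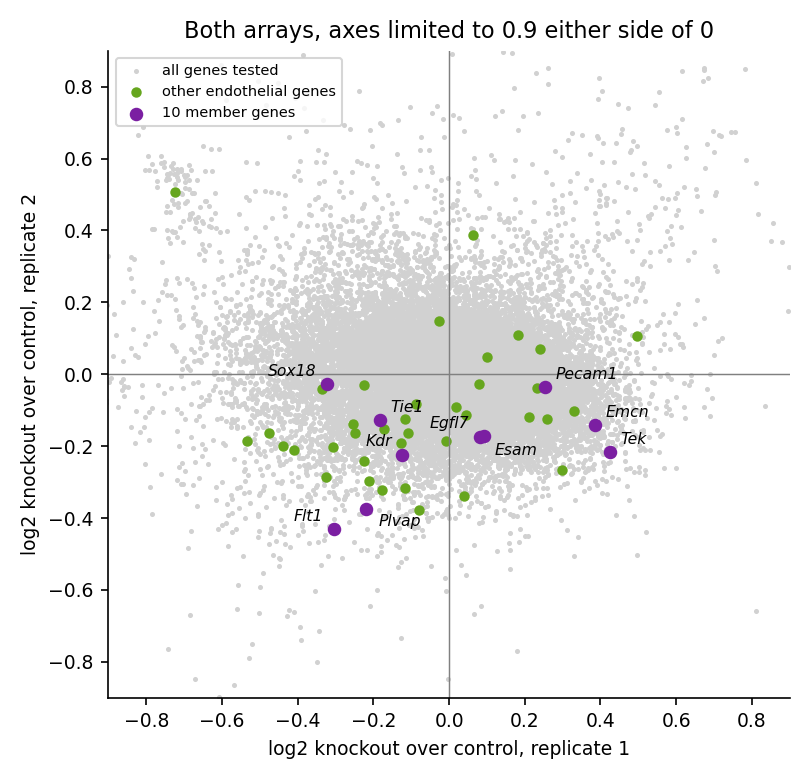
Log2 ratio of labelled knockout over labelled control on replicate 1 (x axis) against replicate 2 (y axis), with all genes tested in grey, other endothelial genes in green and the 10 member genes in purple. The 10 genes all lie below the horizontal zero line and split 5 to 5 across the vertical one. Genes beyond 0.9 on either axis are outside the frame.

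The ligands and partners of these receptors were followed in a list of 16 genes of VEGF and angiopoietin signalling. None passed in limma, and 3 had an unadjusted p under 0.05, each with more signal in labelled control, beside 4.55% of all genes in either direction. The list median was -0.12. Epas1, which encodes the hypoxia-inducible factor HIF2A that drives VEGF and TIE2 genes, read -0.31 on replicate 1 and -0.42 on replicate 2, a mean of -0.36 ± 0.08 (SD, n = 2, limma adjusted p = 0.673). It shrank to -0.26 with the mean over its probes. Vegfd, a ligand of the lymphatic receptor FLT4, had a mean of -0.27 ± 0.07. Ptprb, given above, belongs to this list too. The list also shares Flt4 with the lymphatic list and another gene with the artery and vein list. Angpt2, the ligand that loosens vessels by competing at TIE2, read 0.02 and -0.49, a mean of -0.24 ± 0.36. Angpt4, another ligand of TIE2, was on the knockout side on both arrays with a mean of 0.23 ± 0.03, or 0.35 with values from the authors' deposited table.

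Genes that separate arteries from veins, and NOTCH genes that act in vessels, formed a list of 17. None passed, and 4 had an unadjusted p under 0.05, each with more signal in labelled control (4.55% of all genes in either direction). The list median was -0.06, with -0.0243 for the first array by itself, -0.12 for the second and -0.0363 with values from the authors' deposited table. Notch1 is a receptor used in arterial fate and in sprouting, and epithelial and mesenchymal cells express it as well. It read -0.50 on replicate 1 and -0.33 on replicate 2, a mean of -0.41 ± 0.12 (SD, n = 2, limma adjusted p = 0.472). The vein genes Nr2f2, an orphan nuclear receptor also made in mesenchyme, and Ephb4, a receptor for ephrin-B2, had means of -0.33 ± 0.18 and -0.29 ± 0.12. With the mean over probes, Ephb4 read -0.16. The arterial partner of Ephb4 lay near 0, with Efnb2 at 0.06 ± 0.03, named here after its value was seen.

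Of 7 genes of lymphatic endothelium, 4 were tested, and none passed or had an unadjusted p under 0.05. Prox1, the regulator of lymphatic identity, did not pass the filter on dim probes, and neither did Ccl21a or Reln. Flt4 had a mean of -0.17 ± 0.06 (SD, n = 2), or -0.35 with processed signals and -0.34 with values from the authors' deposited table. The means were -0.10 ± 0.03 for Lyve1 and 0.11 ± 0.30 for Mmrn1. Flt4 also stands in the VEGF list and Mmrn1 in that of other endothelial genes.

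**Figure D4:**
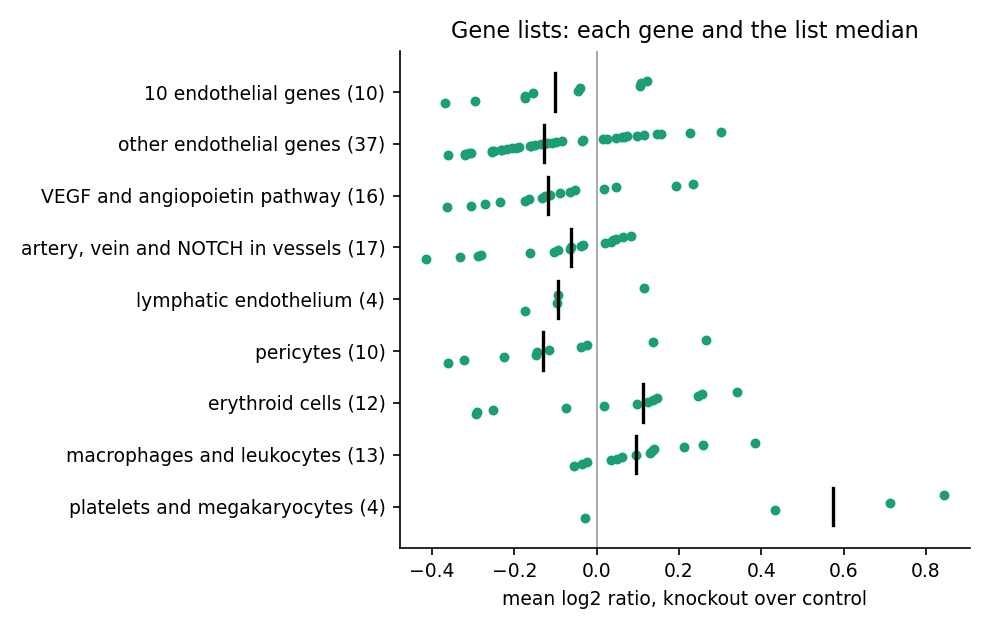
Mean log2 ratio of labelled knockout over labelled control (x axis) of each gene in each list (y axis, with the number of genes tested), 1 point per gene and a vertical bar at the list median. The endothelial lists have medians between -0.13 and -0.06, the pericyte list -0.13, and the medians of the blood cell lists lie above 0. Each blood cell list has single genes on both sides of 0.

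Cells that travel with vessels were read from marker lists. Pericytes wrap capillaries, and 10 of their 10 listed genes were tested with none passing. In limma 2 had an unadjusted p under 0.05, each with more signal in labelled control, beside 4.55% of all genes in either direction. Of the 10, 5 had more signal in labelled control on both arrays and 2 in labelled knockout, beside 24.6% and 21.7% of all genes. The median was -0.13, with -0.18 for the first array by itself and -0.0228 for the second. Anpep had a mean of -0.36 ± 0.20 (SD, n = 2) and Pdgfrb of -0.32 ± 0.33. Rgs5 had more signal in labelled knockout, at 0.17 on replicate 1 and 0.11 on replicate 2. Abcc9 and Higd1b had means near 0, at -0.02 and -0.04. Vtn read 0.27 ± 0.34 but entered only through the knockout channels, since just 1 control spot on each array was well above background. It dropped out with the stricter filter and read 0.69 with processed signals and 0.79 with values from the authors' deposited table. The summed intensity of the pericyte list was 45461 in labelled knockout and 58546 in labelled control on replicate 1, and 42957 and 46361 on replicate 2. The part of other cell types in the values of the 10 endothelial genes was not tested.

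Blood cells gave a mixed picture. All 12 erythroid genes were tested and none passed, with a median of 0.11. In limma 3 had an unadjusted p under 0.05, 1 with more signal in labelled knockout and 2 in labelled control (4.55% of all genes). Ahsp, the chaperone of alpha-globin, had a mean of 0.34 ± 0.02 (SD, n = 2), while the embryonic globin genes Hbb-bh1 and Hba-x read -0.29 ± 0.00584 and -0.29 ± 0.05. The summed intensity of all 12 erythroid genes was 411679 in labelled knockout and 507978 in labelled control on replicate 1. It was 481143 and 418766 on replicate 2, so the sum did not keep its direction. Hba-a1 and Hbb-y supplied most of each sum, and both had opposite signs on the arrays. Of 14 macrophage and leukocyte genes 13 were tested and none passed, with a median of 0.10 and with Lyz2 at 0.39 ± 0.30, Adgre1 at 0.26 ± 0.40 and Mrc1 at 0.21 ± 0.04. Of the 13, 1 had an unadjusted p under 0.05 in limma, with more signal in labelled knockout, against 4.55% of all genes. The macrophage sum ranged from 23843 to 24701 in labelled control and from 24072 to 26475 in labelled knockout.

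The platelet and megakaryocyte list held the only gene of the vessel and blood lists that passed. Of its 4 genes tested 1 passed, against 0.328% of all genes, and 3 had an unadjusted p under 0.05 in limma. Those 3 had more signal in labelled knockout, beside 4.55% of all genes in either direction. Ppbp encodes a chemokine stored in platelet granules, and read 414 in labelled knockout and 258 in labelled control on replicate 1, and 396 and 197 on replicate 2. It rose in labelled knockout by 0.84 ± 0.23 (SD, n = 2) in log2, or 1.79-fold, with an adjusted p of 0.0275 in limma. Among the others, Gp9, a subunit of the platelet receptor for von Willebrand factor, read 0.92 and 0.50, a mean of 0.71 ± 0.30 (adjusted p = 0.0866). It passed in 6 of the 10 alternatives, with adjusted p from 0.00187 (prior with trend) to 0.0338 (mean over probes) in those, and its adjusted p reached 1.00 with median centring. Pf4, another platelet chemokine that macrophages also make, had a mean of 0.43 ± 0.05 (adjusted p = 0.379). All 3 were higher in labelled knockout on both arrays, as were 21.7% of all genes. Itgb3 was at -0.03 ± 0.06, and the defining gene Itga2b, with Gp1ba and Gp5, did not pass the filter on dim probes. The knockout and control values of Ppbp, Gp9 and Pf4 did not overlap across the arrays, nor did those of 20.5% of all genes tested. Ppbp did not pass with unpaired channels (adjusted p = 0.0584), with median centring (1.00) or with dim probes kept (0.748).

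The kidney was checked for as tissue that could be dissected along. Of the nephron genes reported here, none passed. The nephron progenitor gene Six2 read -0.53 on replicate 1 and 0.35 on replicate 2, and Lhx1 read 0.01 and 0.30, with a mean of 0.15 that was 0.0783 with the mean over probes. Umod was dim and did not enter the test. The part of kidney RNA in the values of the endothelial genes was not tested.

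Promoters were compared as a description of sequence, since endothelial genes are known for ETS-family sites. RefSeq start sites on GRCm38.p6 were found for 6 of the 10 genes (Kdr, Flt1, Tek, Tie1, Emcn and Egfl7), giving 8 windows of 300 bases because Egfl7 has several starts. The ETS-type word AGGAAG, on either strand, stood in 5 of the 8 windows (those of Flt1, Tie1 and Emcn and 2 of Egfl7), and in 35.4% of all 32851 windows. The SOX-type word ACAAAG stood in 2 of the 8 (Tek and 1 of Egfl7), against 18.7% of all, and the GATA-type word AGATAA in 1 (Tek), against 11.2%. The 250 bases before the start of the VEGF receptor genes are shown because one of this related pair holds the ETS-type word and the other does not. Both lie on the minus strand and read 5′ to 3′, with AGGAAG in capitals.
Flt1, chr5:147726012-147726261: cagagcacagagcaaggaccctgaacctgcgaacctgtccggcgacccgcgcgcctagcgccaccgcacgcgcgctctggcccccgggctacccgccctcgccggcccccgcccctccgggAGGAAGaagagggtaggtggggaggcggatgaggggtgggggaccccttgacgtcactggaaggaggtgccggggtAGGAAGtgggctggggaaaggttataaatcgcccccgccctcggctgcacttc
Kdr, chr5:75978456-75978705: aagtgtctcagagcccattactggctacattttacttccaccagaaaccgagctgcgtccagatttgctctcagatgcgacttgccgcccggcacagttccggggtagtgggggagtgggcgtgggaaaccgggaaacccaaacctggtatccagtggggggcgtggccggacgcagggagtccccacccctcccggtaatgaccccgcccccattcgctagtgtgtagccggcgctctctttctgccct
In Flt1 the word begins 129 and 53 bases before the start. These letters are absent from the Kdr window, which says nothing of binding by a factor. Other words of the ETS type were not searched for in either window.

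Over 10 other ways of processing the arrays, none of the 10 genes passed in any. Flt1 ranged from -0.38 to -0.33 with a lowest adjusted p of 0.367, and Plvap from -0.30 to -0.26 with a lowest of 0.776. The size of these ratios thus moved by less than the SD between the arrays. Kdr came closest to 0 with the mean over its probes, at -0.0934. The genes Pecam1, Tek and Emcn kept means above 0, from 0.11 to 0.13 for Pecam1, 0.10 to 0.13 for Tek and 0.12 to 0.14 for Emcn. Both arrays always entered these values, and the value of each of these genes on the second array lay below 0.

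**Figure D5:**
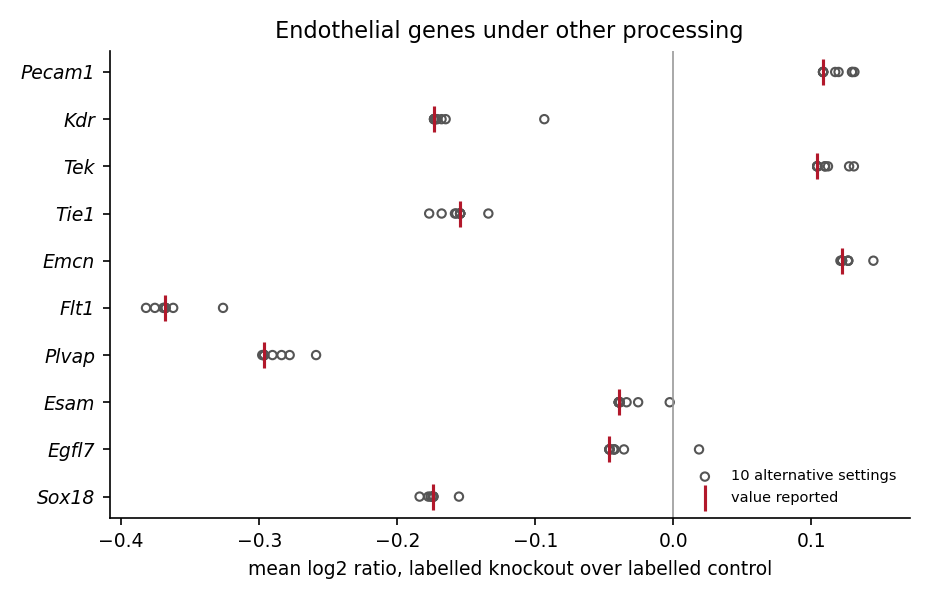
Mean log2 ratio of labelled knockout over labelled control (x axis) of each endothelial gene (y axis) as reported (red tick) and under 10 alternative ways of processing (open circles). The circles stay within 0.1 of the tick for all 10 genes, and only Egfl7 has a circle on the other side of 0.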

How the data were processed

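Total RNA of 2 knockout and 2 control samples was hybridised pairwise to 2 two-colour arrays. Spot intensity was deposited by the authors as scanner output of Agilent Feature Extraction 10.7.3.1, a version named per the file headers. The authors also deposited a value table, taken as a score because its scaling as a signed fold is unstated. Against the red over green log2 ratio it gave a correlation of 0.822 for replicate 1 and of -0.739 for replicate 2, so it runs as control over knockout and entered turned, as an alternative only.

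Here, mean signals were corrected by normexp (offset 50) and normalised by loess in limma 3.58.1 (R 4.3.3). Control spots and outlier-marked spots (3.52% and 3.66%) were left out, and the 4 spots of a probe were averaged. Probes with at least 2 spots well above background on both arrays in 1 genotype were kept (26522), and the brightest probe stood for a gene. The 2 ratios were tested against 0 in limma, two-sided, adjusted by Benjamini-Hochberg over 20104 genes. With a prior of 9.21 degrees of freedom, p-values rest mainly on variance pooled over genes. Only the limma test was tried on simulated ratios, drawn from its own fitted prior, and the steps before it were not.

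Names were updated through RefSeq (28328 probes by accession, 3400 by symbol, 242 by an older symbol, 7459 unmatched). Members and lists were chosen with earlier results of these data known. Named from each further list were the genes that passed and the 3 with the largest absolute mean (5 for the endothelial and VEGF lists). The ureter check genes, Gpihbp1, Arhgef15, Efnb2, Itgb3, Hba-a1, Hbb-y, Rgs5, Abcc9 and Higd1b were named outside this rule, after their values were seen. Alternatives covered background, normalisation, filter, probe rule, prior, pairing of channels, the deposited table and each array alone. Plots were drawn with matplotlib 3.10.9. A result of the kidney list is not reported here.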

Additional observations from a re-analysis of the deposited data

Results flagged for a closer look

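The female array (replicate 1) and the male array (replicate 2) gave opposite signs for the following genes. With 1 array of each sex, and the dyes turned with it, the difference was not tested. Among the 10 endothelial genes these were Pecam1 (0.25 on replicate 1 and -0.04 on replicate 2), Tek (0.43 and -0.22), Emcn (0.39 and -0.14), Esam (0.09 and -0.17) and Egfl7 (0.08 and -0.17). All 5 were positive on the female array and negative on the male array, which is the Cy3 channel brighter on each array.

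Among the further genes, Angpt2 read 0.02 on replicate 1 and -0.49 on replicate 2, Mmrn1 0.33 and -0.10, Adgre1 -0.02 and 0.54, and Six2 -0.53 and 0.35. Of all 20104 genes, 10788 had opposite signs on the arrays.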

How the results depend on the processing

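None of the 10 endothelial genes passed under any alternative with a test, and 1 or 2 of them had an unadjusted p under 0.05 in each. Over all genes that count ran from 347 of 20104 with median centring to 1187 of 20104 with the authors' deposited table. Each of these settings had 1 of the 10. Signs of all 10 held in every alternative with a test, except Egfl7 at 0.0187 with median centring. The count with more signal in labelled control on both arrays was 4 with median centring and 5 otherwise, and 5 to 10 on 1 array alone. On 1 array alone, Pecam1 ranged from -0.0357 to 0.25, Tek from -0.22 to 0.43, Emcn from -0.14 to 0.39, Esam from -0.17 to 0.0928, Egfl7 from -0.17 to 0.0811, Mmrn1 from -0.10 to 0.33, Angpt2 from -0.49 to 0.0178, Adgre1 from -0.0218 to 0.54 and Six2 from -0.53 to 0.35.

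Over all genes, the 66 calls became 115 without background correction, 131 with offset 0, 194 with processed signals, 191 with values of the authors' deposited table, 156 with a prior with trend and 26 with no replicate block (channels unpaired). They became 0 with median centring (347 genes at an unadjusted p under 0.05) and 0 with dim probes kept (1097). The cause was not tested.

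List medians moved as follows. On 1 array alone, VEGF ranged from -0.17 to -0.12, lymphatic from -0.14 to -0.11, erythroid from -0.0491 to 0.16, macrophage from 0.0779 to 0.0945 and platelet from 0.48 to 0.54. With dim probes kept, lymphatic was -0.0365, macrophage 0.0789 and platelet 0.22. The macrophage median was 0.11 with processed signals, 0.12 with median centring, 0.11 with the stricter filter and 0.11 with that deposited table. The platelet median was 0.62 without background correction, 0.65 with offset 0, 0.74 with processed signals and 0.77 with that deposited table. The number of arrays limits all of these.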
